A study of Mus musculus with 2 samples.

Results

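The cells described here are the B cells of the second liver pool, chosen by transcript in 1 capture library. A cell was taken when it held at least 2 UMIs of Cd79a, a signalling chain of the B cell receptor, and 0 UMIs of Cd3e, a T cell receptor chain. The rule gave 2564 of the 24111 cells in that library and of the 34137 cells in both libraries of the series. Of these, 1485 carried the name WT in the deposited cell metadata and 1079 carried no genotype name.

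The study captured CD45+ immune cells from livers of C57BL/6 mice that were labelled as 10 weeks old, while its methods give a slightly younger age for WT mice. CD45 is a surface protein of leukocytes. The second pool holds liver cells of wild type mice and of P40-/-IL-2Ra-/- mice, a model of primary biliary cholangitis, in which small bile ducts are attacked by the immune system. P40 is encoded by Il12b and is the shared subunit of IL-12 and IL-23, and Il2ra encodes the IL-2 receptor alpha chain. The number of mice of each genotype in the pool is not given in the sources used here.

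Cells with no name, called unnamed cells below, lack a row in the metadata that the authors filtered. They can be cells of the P40-/-IL-2Ra-/- mice, WT cells that the filter removed, or captures of more than 1 cell, and these cannot be told apart. Unnamed cells are therefore not called knockout cells. Both groups come from 1 capture library and are parts of 1 sample. Cells of 1 sample are not replicates, so no p-value is given, and every interval is a 95% interval that covers counting error only.

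B cells recognise antigen through membrane IgM and IgD, and after activation they can switch to IgG or IgA and become plasma cells that secrete antibody. They also present peptides to T cells on MHC class II. Interferon-γ from T cells and NK cells acts on B cells through a receptor on their surface. It induces MHC class I, the peptide transporter, the immunoproteasome and a family of GTPases that act against intracellular microbes.

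The genes of the IL-2 receptor and of p40 were looked at first. Over the whole library Il2ra stood at 7.49 CPM (counts per 1000000 UMIs, 6.84 to 8.18) in unnamed cells and at 59.6 CPM (56.5 to 62.9) in WT cells. In T cells, taken as cells with at least 2 Cd3e UMIs and 0 Cd79a UMIs, Il2ra was at 8.58 CPM in unnamed cells and at 98.4 CPM in WT cells. Most B cells gave no Il2ra UMI, with 14 UMIs in 8 of 1079 unnamed cells and 13 UMIs in 11 of 1485 WT cells. Il12b gave 9 UMIs in 9 unnamed B cells and 0 UMIs in WT B cells, where the exact interval reaches up to 0.958 CPM. T cells differed in the same direction, with 80 UMIs in 78 of 10316 unnamed cells and 3 UMIs in 3 of 2999 WT cells. This difference in Il12b was thus not particular to B cells. In the whole library Il12b gave 168 UMIs in 140 unnamed cells and 86 UMIs in 12 WT cells. Its transcript was thus not absent from unnamed cells, and the counts do not say whether the transcript is intact.

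The B cell gate held 6.41% of unnamed cells (6.05 to 6.79) and 20.4% of WT cells (19.5 to 21.3). The share was lower in unnamed cells by 14.0 percentage points (Newcombe interval of the difference -14.99 to -13.00). This share follows from the rule and from the unknown makeup of the unnamed cells, and is given as a description. At the edge of the rule, 49 unnamed and 27 WT cells held exactly 2 Cd79a UMIs and were inside. Another 140 unnamed and 56 WT cells held exactly 1 and were outside. A further 475 unnamed and 279 WT cells held the Cd79a UMIs but also Cd3e, and were left out. The median gated cell held 9 Cd79a UMIs in both groups.

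The label was checked against markers. Of the 1485 gated WT cells, 1449 (97.6%) have a B cell name in the deposited annotation, 1283 as mature and 166 as immature B cells. The gate took 85.4% of all WT cells with a B cell name. Cd79b, the partner of Cd79a, was at 983 CPM in unnamed and 973 CPM in WT cells. Ms4a1, which encodes CD20, was at 1059 and 1135 CPM. The gated cells thus carried these B cell genes in both groups, at nearly equal levels.

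Depth was close in both groups. The median gated cell held 2366 UMIs among unnamed and 2083 UMIs among WT cells, and the sums were 3120799 and 3849597 UMIs. The median mitochondrial share was 7.997% and 7.993%, but its highest value was 68.0% among unnamed and 20.5% among WT cells. In all, 20 unnamed gated cells (1.85%) lay outside the range of all WT cells in depth, genes or mitochondrial share. Cell numbers found in both libraries came to 267, of which 11 unnamed and 10 WT cells were in the gate. Xist, which is read from the inactive X chromosome, was at 429 CPM in unnamed and 402 CPM in WT B cells.

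Of the 22774 genes of the library, 7079 had at least 100 UMIs over both groups and were compared by the ratio of their CPM, unnamed over WT. The median log2 ratio was -0.05, and 91.0% of genes lay within 0.5 of 0 on the log2 scale. With 1 sample a group, a gene is counted when the ratio is past 2-fold. By that size rule 120 genes (1.7%) were higher and 28 genes (0.396%) were lower in unnamed cells. Gene lists use a minimum of 20 UMIs, at which 375 of 10102 genes (3.71%) were past 2-fold higher and 187 (1.85%) past 2-fold lower. These shares are the background for each list below, and the median log2 ratio over those genes was -0.04.

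**Figure D1:**
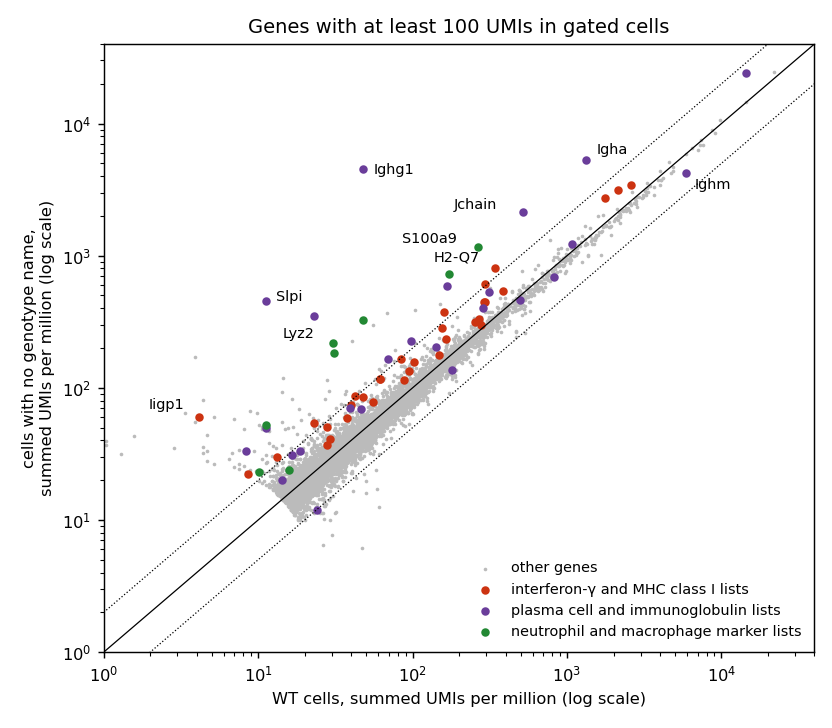
CPM of each gene with at least 100 UMIs and a count above 0 in both groups, in WT cells (x axis, log scale) and in unnamed cells (y axis, log scale), 1 point per gene. The solid line marks equal levels and the dotted lines a 2-fold difference. Interferon-γ and MHC class I genes lie above the solid line, neutrophil genes do as well, and the points farthest above it include the immunoglobulin gene Ighg1.

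Genes that interferon-γ induces were higher in unnamed B cells. Of 22 genes in the list of interferon-γ GTPases and targets, 19 had at least 20 UMIs, all 19 had a log2 ratio above 0, 7 were past 2-fold higher and 0 past 2-fold lower. Their median log2 ratio was 0.85, against -0.04 over all such genes. The other 3 members were too low to compare. The list summed to 2096 CPM in unnamed and 1309 CPM in WT cells.

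Iigp1, a GTPase that coats the vacuoles of intracellular parasites, showed the largest ratio of the list, with 189 UMIs in unnamed and 16 UMIs in WT cells. Its log2 ratio was 3.87 (3.13 to 4.70), and 3 WT cells held 50% of the WT UMIs. The difference for Iigp1 was far larger than for any other measured member of the list except Tgtp2, whose interval overlaps it.

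Related GTPases were higher as well. Igtp was at 54.2 CPM in unnamed and 22.9 CPM in WT cells, a log2 ratio of 1.24 (0.86 to 1.63). Irgm2 had a log2 ratio of 1.17 (0.66 to 1.69) and Tgtp2 one of 2.47 (1.17 to 4.04), the latter from 27 and 6 UMIs. Among the guanylate-binding proteins, Gbp6 had a log2 ratio of 1.37 and Gbp8 one of 1.09, while Gbp2 was at 0.89, Gbp5 at 0.85 and Gbp7 at 0.49. Irf1, an early target of interferon-γ, was at 298 and 277 CPM, with a log2 ratio of 0.11 (-0.02 to 0.24). The ratio of Irf1 was small beside those of the GTPases. In the reduced set of cells described further on it was 0.28 (0.09 to 0.46), and the thinned shares of cells with Irf1 differed by 3.39 points (0.12 to 6.71).

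Short promoter stretches are shown for 3 of these GTPases and for Serpina3g, which is described further on. They are the 100 bases before the RefSeq start of each gene in the build GRCm38, 5′ to 3′ on the gene's strand. Capitals mark matches to 2 motifs, searched on both strands: TTC followed after any 3 bases by GAA, the interferon-γ activated site (GAS), and GAAA followed after any 2 bases by GAAA, the interferon-stimulated response element (ISRE).
Igtp (chr11:58199456-58199555, plus strand): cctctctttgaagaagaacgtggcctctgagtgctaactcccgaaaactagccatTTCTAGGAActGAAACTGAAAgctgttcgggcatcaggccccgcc
Irgm2 (chr11:58214877-58214976, plus strand): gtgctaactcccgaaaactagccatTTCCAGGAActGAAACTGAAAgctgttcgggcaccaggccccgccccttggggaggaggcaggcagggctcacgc
Tgtp2 (chr11:49064213-49064312, minus strand): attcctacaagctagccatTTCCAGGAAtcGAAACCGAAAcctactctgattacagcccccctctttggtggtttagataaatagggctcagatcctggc
Serpina3g (chr12:104236047-104236146, plus strand): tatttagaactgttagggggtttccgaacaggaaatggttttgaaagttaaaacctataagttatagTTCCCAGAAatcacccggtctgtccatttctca

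In Igtp, Irgm2 and Tgtp2 both motifs were present, and the first base of the ISRE match lay 11 bases after the first base of the GAS match in each, with no overlap. The Igtp and Irgm2 stretches lie near each other on chromosome 11 and are much alike in sequence, so their shared spacing is no separate finding. The Serpina3g stretch held a GAS match 33 bases before the start and no ISRE match. All stretches shown hold a GAS match, which not all genes do. Among genes not shown, Gbp5 and Gbp7 held both motifs in the 250 bases before their starts, and Irgm1 and Gbp2 held ISRE matches alone. Ifi47 and Il9r held neither motif there. In the 250 bases before a start, at least 1 of both motifs was found in 13 of 18 windows of the interferon-γ list (72.2%, 15 of its 22 genes matched). Over all 32851 such windows of the RefSeq table the share was 9.67%. In the MHC class I list it was 4 of 17 windows (23.5%, 15 of 17 genes matched). The interferon-γ list was put together as targets of interferon-γ, so a high share of motifs follows from that choice. That share is no result about unnamed or WT cells. A match is a run of letters, not a shown binding site.

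MHC class I genes had smaller ratios, all in the same direction. All 17 genes of the list on MHC class I and the immunoproteasome were measured and had log2 ratios above 0, from 0.27 to 1.23 with a median of 0.62. Of these, 3 were past 2-fold higher. The list summed to 13561 CPM in unnamed and 9077 CPM in WT cells.

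Nlrc5, the activator of class I genes, was at 86.8 CPM in unnamed and 42.6 CPM in WT cells, a log2 ratio of 1.03 (0.74 to 1.32). The class Ib genes H2-Q7 and H2-Q6 had log2 ratios of 1.23 (1.14 to 1.33) and 1.07 (0.96 to 1.18). They are near-identical copies, and reads may be split between them. The classical heavy chain gene H2-K1 was at 2718 and 1761 CPM (log2 ratio 0.63, 0.58 to 0.67), and H2-D1 had a log2 ratio of 0.38. B2m, the light chain of every class I molecule, was at 3150 and 2126 CPM (log2 ratio 0.57, 0.52 to 0.61). The intervals of Nlrc5, H2-K1 and B2m all lay above 0.

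Genes that load class I molecules had log2 ratios above 0, with 0 of those named next past 2-fold. Tap1, a subunit of the peptide transporter, had a log2 ratio of 0.87 (0.72 to 1.02), and Psmb9, an immunoproteasome subunit, one of 0.99 (0.79 to 1.197). Psmb8 was at 0.62 and Psmb10 at 0.63. The proteasome activator genes Psme1 and Psme2 showed the smaller ratios of 0.30 and 0.27.

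**Figure D2:**
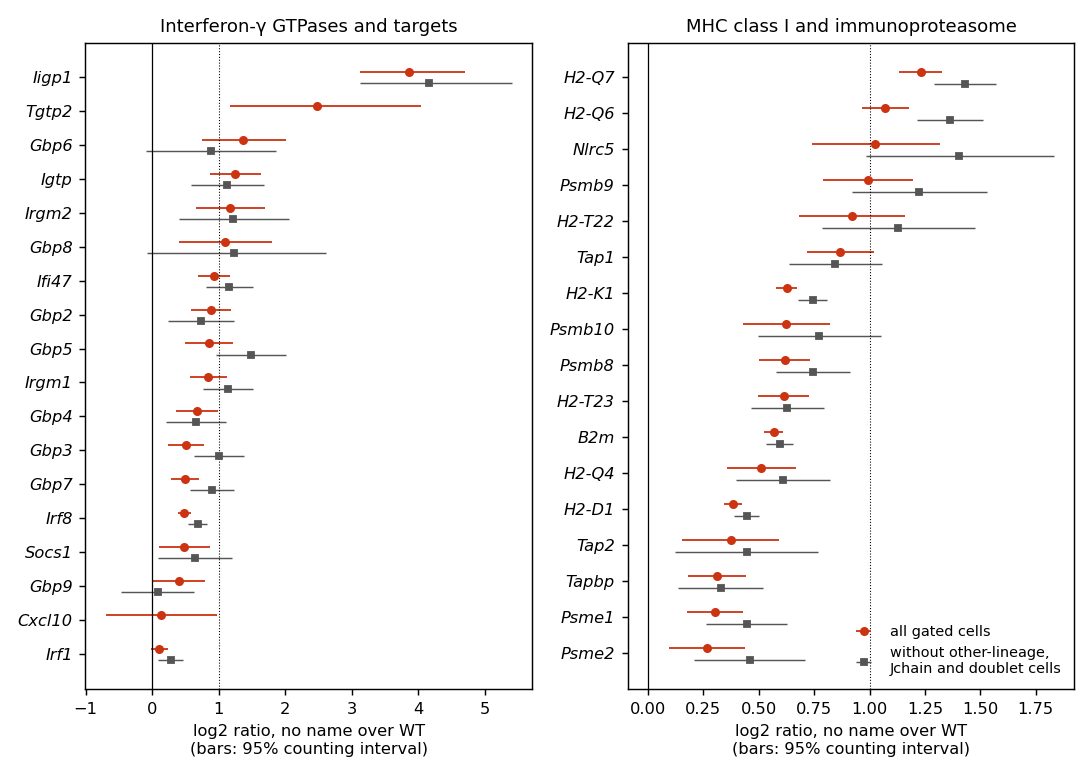
Log2 ratio of summed CPM, unnamed over WT, for measured genes of the interferon-γ list and of the MHC class I list (x axis). Red points are all gated cells and grey squares are cells left after removal of those with markers of other lineages, at least 10 Jchain UMIs or a doublet call. Bars are 95% counting intervals, the dotted line marks 2-fold, and the 17 class I genes lie between 0.27 and 1.23 in all gated cells.

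The difference was spread over many cells. When every cell was thinned to 1000 UMIs, which left out 0 cells, the median unnamed B cell held 14 UMIs of the class I list (quartiles 11 and 17) and the median WT B cell held 9 (quartiles 6 and 11). For the interferon-γ list the thinned medians were 2 and 1 UMIs. After thinning, H2-Q7 was found in 55.6% of unnamed and 26.9% of WT B cells, a difference of 28.7 points (24.9 to 32.3). Iigp1 was then found in 4.82% and 0.202%. T cells express these genes too, with thinned shares of 73.6% and 64.4% for H2-Q7, so they give no background level.

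**Figure D3:**
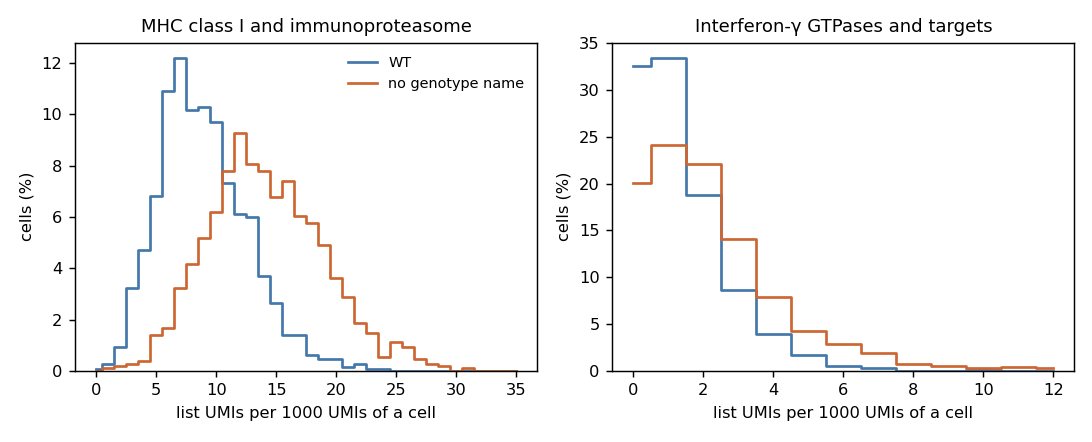
Share of gated cells (y axis, %) by the number of UMIs of the MHC class I list (left) or the interferon-γ list (right) after each cell was thinned to 1000 UMIs (x axis), for WT (blue) and unnamed (orange) cells. The class I distribution of unnamed cells is shifted to the right of that of WT cells, with medians of 14 and 9 UMIs.

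T cells of the same library were set beside the B cells. In 10316 unnamed and 2999 WT T cells the interferon-γ list had a median log2 ratio of -0.27 over 22 measured genes, with 0 past 2-fold higher and 1, Igtp, past 2-fold lower at -1.04. Over the 12938 genes with at least 20 UMIs in T cells, 1066 (8.24%) were past 2-fold higher and 707 (5.46%) past 2-fold lower, with a median of -0.07. Iigp1 was at -0.46 there. The class I list had a median of 0.23 in T cells and 0.62 in B cells. The difference between the cell types was not tested.

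The type I interferon list differed less. Of 36 genes, 35 were in the file and 34 measured, 28 lay above 0, 5 were past 2-fold higher (Ifit1, Ifit3b, Oasl2, Rsad2 and Zbp1) and the median log2 ratio was 0.28. Oasl2, an antiviral synthetase-like protein, was at 49.0 and 14.8 CPM (log2 ratio 1.73, 1.28 to 2.19). In the reduced set of cells it was at 0.40 (-0.49 to 1.29), from 22 and 25 UMIs. Zbp1, a sensor of Z-form nucleic acid, had a log2 ratio of 1.01 (0.53 to 1.499). In that set Zbp1 was at 0.85 (0.17 to 1.54), Rsad2 at -0.996 (-2.81 to 0.54), and Ifit1 and Ifit3b fell under 20 UMIs. Of 28 genes measured there, 1 was past 2-fold higher, Ly6a at 1.15 (1.02 to 1.28), which was at 0.60 in all gated cells, and the median was 0.19. Isg15 was at 0.78, Stat2 at 0.09 and Ifi35 at -0.30. Rsad2 and Ifit1 took the other sign under some choices of cells, and 3 cells held 72.3% and 68.8% of their unnamed UMIs.

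MHC class II genes showed little difference. All 14 were measured, 0 were past 2-fold in either direction, and the median log2 ratio was 0.13. Cd74, the invariant chain, was at 14496 CPM in unnamed and 14374 CPM in WT cells (log2 ratio 0.012, -0.0057 to 0.030). H2-Ab1 was at 0.15 and Ciita, the class II activator, at 0.43 (0.30 to 0.55). The largest value was that of H2-Oa, which restrains class II loading, at 0.80 (0.59 to 1.01). In these cells the class I genes thus differed more than the class II genes.

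Antibody genes gave the largest ratios, and they came from few cells. Ighg1, the constant region of IgG1, had 14254 UMIs in unnamed cells and 184 in WT cells, a log2 ratio of 6.58 (6.37 to 6.80). In unnamed cells 10 cells held at least 100 Ighg1 UMIs each, and 0 WT cells did. Those 10 cells held 98.4% of the Ighg1 UMIs of the group, and the 3 highest held 55.9% of them. Igha, the constant region of IgA, was at 5342 and 1329 CPM (log2 ratio 2.01, 1.96 to 2.05), with 31.6% of the unnamed and 61.9% of the WT UMIs in 3 cells each. Ighg2b had a log2 ratio of 3.91, but 3 cells held 94.7% of its UMIs in unnamed cells. These sums therefore describe a small number of cells.

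Cells with at least 10 UMIs of Jchain, which joins IgA and IgM into polymers, were counted as antibody-secreting. They were 28 of 1079 unnamed cells (2.59%, 1.73 to 3.73) and 8 of 1485 WT cells (0.539%, 0.233 to 1.06), a difference of 2.06 points (1.11 to 3.22). All 28 and all 8 held a UMI of Sdc1, Tnfrsf17 or Prdm1, which mark plasma cells. Among the 28 unnamed cells Igha was the leading heavy chain gene in 19, Ighg1 in 8 and Ighg2b in 1. Among the 8 WT cells Igha led in 6 and Ighm in 2. Of the Ighg1 UMIs of unnamed cells, 81.9% lay in the 28 cells, and 8 of the 10 cells with at least 100 Ighg1 UMIs were among them. Immunoglobulin genes took 29.8% and 31.5% of the UMIs of the median cell. The intervals for a leading Ighg1 overlap, at 28.6% (13.2 to 48.7) of the 28 cells and 0% (up to 36.9) of the 8 cells. These are deep cells, with medians of 9762 and 8550 UMIs, and 25 of the 28 and 4 of the 8 held at least 2 UMIs of a T, NK, macrophage or neutrophil list, 21 and 3 of them of the T list. Among cells without such markers, cells with at least 10 Jchain UMIs were 3 of 576 (0.521%) and 4 of 920 (0.435%), a difference of 0.086 points (-0.67 to 1.12). The difference was not seen under that limit, which counts raw UMIs. When the markers were counted after thinning each cell to 1000 UMIs, 2 of the 28 and 0 of the 8 cells were removed. The rest were then 26 of 851 (3.06%) and 8 of 1269 (0.630%), a difference of 2.42 points (1.29 to 3.84). Without doublet calls they were 28 of 1022 (2.74%) and 8 of 1450 (0.552%), a difference of 2.19 points (1.195 to 3.41). Among cells with at least 4 Cd79a UMIs they were 21 of 984 (2.13%) and 7 of 1402 (0.499%), a difference of 1.64 points (0.731 to 2.77).

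**Figure D4:**
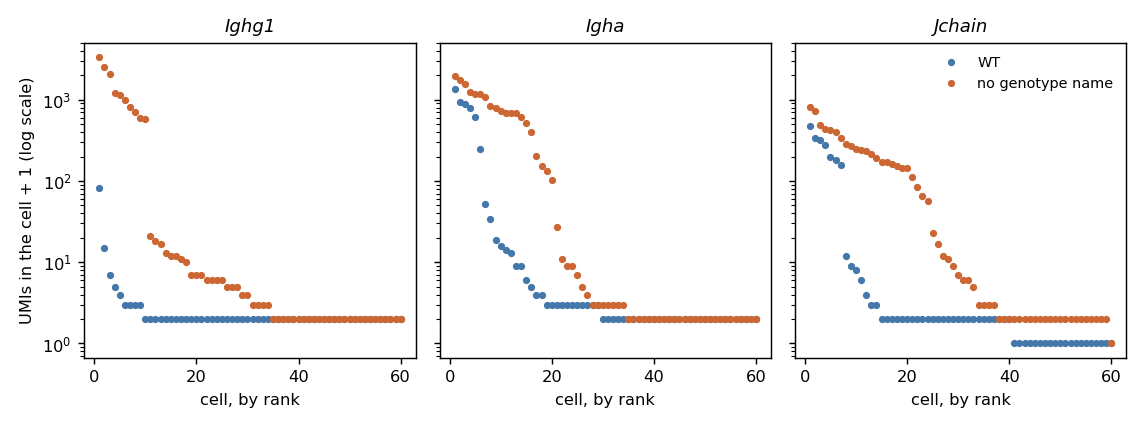
UMIs plus 1 (y axis, log scale) in the 60 highest gated cells by rank (x axis) for Ighg1, Igha and Jchain, in WT (blue) and unnamed (orange) cells. In the Ighg1 panel 10 unnamed cells stand above 100 UMIs and 0 WT cells do.

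Over all gated cells with at least 3 heavy chain UMIs, Ighm led in 91.2% of 1060 unnamed and 94.3% of 1476 WT cells. A switched gene led in 49 unnamed cells (4.62%) and 21 WT cells (1.42%), a difference of 3.20 points (1.87 to 4.72). Ighg1 led in 25 and 2 of these cells, and Igha in 23 and 13. They overlap with the cells of at least 10 Jchain UMIs, where a switched gene led in all 28 unnamed and in 6 of 8 WT cells. The difference of 3.20 points is thus in part the same result. Antibody RNA was found in other cells as well, since 7.61% of unnamed and 6.30% of WT T cells held an Ighg1 UMI, against 8.34% and 5.25% of B cells. The T cells had median depths of 3225 and 2925 UMIs. At 1000 UMIs a cell the shares were 4.45% (3.298 to 5.86) and 2.36% (1.65 to 3.26) of B cells and 2.21% (1.94 to 2.51) and 2.30% (1.79 to 2.90) of T cells. WT B cells were thus at the level of T cells at equal depth and unnamed B cells above it. Lambda light chain led over kappa in 5.92% and 5.95% of cells, a difference of -0.03 points (-1.87 to 1.89).

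Plasma cell genes came in part from the same few cells. All 16 of the list were measured, 6 were past 2-fold higher (Jchain, Xbp1, Tnfrsf17, Slpi, Derl3 and Edem1), 0 were past 2-fold lower, and the median log2 ratio was 0.83. Xbp1, the transcription factor of the secretory programme, was at 226 and 97.7 CPM (log2 ratio 1.21, 1.03 to 1.40). Tnfrsf17, the receptor BCMA, had 103 and 32 UMIs, of which 99.03% and 100% were in the cells with at least 10 Jchain UMIs. Slpi, a protease inhibitor that neutrophils make too, had 1408 and 43 UMIs, with 86.2% of the unnamed UMIs in those cells. Without the Jchain cells the plasma list median was -0.14. Of the 12 immunoglobulin constant genes 10 were measured, 4 were past 2-fold higher and Ighg3 past 2-fold lower, and without the Jchain cells their median was -0.13. Ighg3, the constant region of IgG3, had 37 and 93 UMIs (log2 ratio -1.03, -1.62 to -0.46), with 64.5% of the WT UMIs in 3 cells. It was found in 2.78% of unnamed and 1.55% of WT cells, and its log2 ratio was 1.05 after thinning and 0.40 with equal weight per cell. The direction of Ighg3 thus depended on how cells were weighted. Ighm itself was at 4253 and 5851 CPM (log2 ratio -0.46, -0.49 to -0.43), and Ighd at 0.18. Ighm was at -0.081 (-0.12 to -0.038) in the reduced set of cells described further on, so most of its difference was not seen there.

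Genes of B cell identity were steady. All 16 were measured, 0 were past 2-fold in either direction, and the median log2 ratio was -0.10. Pax5, the factor that holds B cell fate, was at 500 and 615 CPM (log2 ratio -0.30, -0.39 to -0.20). Cd72 and Cd22, which dampen receptor signals, stood above the rest with log2 ratios of 0.70 (0.56 to 0.84) and 0.37 (0.29 to 0.45).

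In the list of immature B cell genes 7 of 12 were measured, 1 was past 2-fold lower, 0 past 2-fold higher, 5 lay below 0, and the median log2 ratio was -0.40. Vpreb3, an assembly factor of the early receptor, was at 122 and 188 CPM (log2 ratio -0.63, -0.81 to -0.45). Cd24a was at 365 and 533 CPM (log2 ratio -0.54, -0.65 to -0.44). Myb, a factor of progenitors, had 35 and 100 UMIs (log2 ratio -1.21, -1.81 to -0.64). Rag1, which cuts DNA for receptor assembly, went the other way with 21 and 14 UMIs (log2 ratio 0.89, -0.16 to 1.98), and 3 cells held 90.5% of its unnamed UMIs. Lef1 was at 0.0083 (-0.54 to 0.55) and Cd93 at -0.40 (-1.195 to 0.37).

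Mature subsets differed by single genes. The follicular list had a median of -0.08 over 13 genes and 0 past 2-fold either way. Fcer2a (CD23) was at 415 and 534 CPM (log2 ratio -0.36, -0.46 to -0.26) and Cr2 (CD21) was at -0.36. The marginal zone list had 11 of 12 genes measured, 0 past 2-fold either way and a median of -0.19. In the B-1 list 12 of 12 were measured with a median of -0.13, and 4 were past 2-fold lower (Zbtb32, Ahr, Zcwpw1 and Tppp3) and 1, Capn5, higher. Zbtb32, a repressor found in innate-like B cells, was at 22.1 and 48.3 CPM (log2 ratio -1.13, -1.55 to -0.72). Bhlhe41, which B-1a cells need, was at -0.54 (-0.88 to -0.21), while Cd5 was at -0.10 (-0.86 to 0.65). In the reduced set of cells described further on Zbtb32 was at -0.92 (-1.74 to -0.16), Zcwpw1 at -1.48, Bhlhe41 at -0.13 (-0.63 to 0.36) and Capn5 at 1.15. The B-1 genes Ahr with 7 and 5 UMIs and Tppp3 with 1 and 13 UMIs were too low to compare there.

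The age-associated list had 12 genes measured, a median of 0.48, 2 past 2-fold higher (Fas and Fcgr4) and 1, Sox5, lower. Tbx21, the factor T-bet, had 44 and 34 UMIs (log2 ratio 0.67, -0.0039 to 1.36). Sox5 had 8 and 59 UMIs (log2 ratio -2.58, -3.86 to -1.51), and Fcrl5 was at -0.78. Fas, the death receptor, had 47 and 21 UMIs (log2 ratio 1.47, 0.69 to 2.28). Fcgr4 is also a gene of myeloid cells, and with 4 and 2 UMIs it was too low to compare in the reduced set of cells described further on. There the age-associated list had 9 genes measured, a median of 0.20, 1 past 2-fold higher and 2 lower. Of the germinal centre list 6 of 12 were measured with a median of 0.56. Fas, S1pr2 and Basp1 were past 2-fold higher. S1pr2 rested on 13 and 7 UMIs (log2 ratio 1.196, -0.24 to 2.76). Basp1 rested on 48 and 28 UMIs, ranged down to 0.047 under the other settings, and like S1pr2 had under 20 UMIs in the reduced set of cells described further on. In contrast, Bcl6, the master factor of that state, was at 0.04 (-0.24 to 0.32). The members of both lists differed in sign.

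Among cytokines and receptors 25 of 29 genes were measured, with a median of 0.17. Past 2-fold higher were Il12rb1 and Il13ra1, from 21 and 16 unnamed UMIs, and past 2-fold lower were Il6st and Il10. Il10, which restrains inflammation, had 6 and 30 UMIs (log2 ratio -2.02, -3.57 to -0.73). Il6st, the signalling chain for IL-6, had 32 and 103 UMIs (log2 ratio -1.38, -2.00 to -0.80). Il12a, the p35 partner of p40 in IL-12, was at 41.0 CPM (34.2 to 48.8) and 21.8 CPM (17.4 to 27.0). Il4ra was at 0.51 and the interferon-γ receptor genes Ifngr1 and Ifngr2 at 0.03 and 0.07. The intervals of both receptor genes span 0 (-0.21 to 0.28 and -0.21 to 0.34), while the target genes above were higher. Il12rb1, Il13ra1 and Il10 were too low to compare in the reduced set of cells described further on. They had 11 and 2, 1 and 1, and 1 and 13 UMIs there. Il6st stayed past 2-fold lower in that set, at -1.103 (-2.125 to -0.1775).

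Of 22 homing genes 21 were measured, with a median of 0.01 and Ccr6 and Ccr10 past 2-fold higher. Ccr6, the receptor for CCL20, was at 110 and 48.8 CPM (log2 ratio 1.17, 0.91 to 1.43). After thinning it was found in 9.45% and 4.44% of B cells and in 0.368% and 1.77% of T cells. Ccr10, a receptor of IgA plasma cells, had 48 and 17 UMIs (log2 ratio 1.80, 0.98 to 2.69), and it fell under 20 UMIs in the reduced set of cells described further on. Cxcr4 was at -0.42, Ccr7 at -0.41 and Rgs2 at -0.60.

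Receptor signalling genes were close to equal, with 20 of 20 measured, 0 past 2-fold either way and a median of -0.07. In the list of inhibitory receptors 14 of 14 were measured, 1, Cd300a, was past 2-fold higher and the median was 0.07. With 2 and 1 UMIs Cd300a was too low to compare in the reduced set of cells described further on. Immediate early and NF-κB genes had a median of -0.12 over 30 genes and 0 past 2-fold. Nr4a1, which reports recent receptor signals, was at 263 and 469 CPM (log2 ratio -0.83, -0.95 to -0.71), and Myc was at -0.55. Jun was higher, at 0.37, so the early genes differed in sign. Activation and costimulation genes had a median of 0.05 over 13 of 16 genes with 0 past 2-fold, among them Cd83 at 0.50 and Cd86 at -0.39 (-0.82 to 0.02).

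Survival genes had a median of -0.11 over 17 of 18 genes, with Tnfrsf17 past 2-fold higher, and Tnfrsf13c, the BAFF receptor, was at -0.02 (-0.15 to 0.10). Cell cycle genes had a median of 0.02 over 25 genes, with 1 past 2-fold each way (Pclaf and Ccnb1). Pclaf had a log2 ratio of 1.01, with 71.3% of the unnamed UMIs in 3 cells, and of -1.05 without the Jchain cells. Mki67 was at 0.013 (-0.35 to 0.38), but ranged from -1.49 to 2.99 over the other settings. In T cells 15 of the same 25 genes were past 2-fold higher, with a median of 1.16, against 8.24% of all genes measured there. Glycolysis genes had a median of 0.13 over 15 genes and heat shock genes 0.21 over 12, each with 0 past 2-fold. Genes of the unfolded protein response had a median of 0.25 over 17, with Xbp1 past 2-fold higher. In the reduced set of cells described further on their median was 0.10 with 0 past 2-fold, and Xbp1 was at 0.50 (0.13 to 0.87). The median of the cell cycle genes was thus near 0 in the B cells, while Mki67 and Pclaf depended on the setting.

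Surface proteins were read with 49 antibodies, of which 32 were described, as centred log ratios on a natural log scale, which set each antibody against the mean of all antibodies of the cell. The median cell held 2051 antibody counts among unnamed and 1957 among WT cells. CD23, the low-affinity IgE receptor, had a median of 3.399 in unnamed cells (quartiles 2.34 and 3.95) and of 2.43 in WT cells (1.61 and 2.96), a difference of 0.97. CD23 protein was higher while its transcript Fcer2a was lower. On T cells CD23 medians were -0.63 and -0.48.

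CD24, which is high on immature B cells, had medians of -0.14 and 0.73, a difference of -0.86, in the same direction as its transcript Cd24a. CD200, an inhibitory ligand, had medians of 1.14 and 1.82. CD95, the product of Fas, had medians of -0.94 and -1.41, a difference of 0.47, again in the direction of its transcript. The median CD95 count was 1 in both groups, with counts in 71.8% of unnamed and 50.8% of WT cells. The CD95 medians thus rest on very low counts. IgM had medians of 3.56 and 3.97, and CD45R (B220) of 3.795 and 3.61. IgD differed by -0.15, CD5 by -0.03 and CD25 by -0.11.

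The antibody to CD138, a plasma cell protein, had medians of -1.80 and -1.71. Its median count was 0 in both groups, with counts in 17.6% of unnamed and 22.9% of WT cells. These medians are thus not read as levels. For antibodies to proteins of other cells, CD3 differed by 0.05, TCRb by 0.33, CD8b by 0.28 and NK1.1 by 0.26. The antibody to Ly6G, a neutrophil protein, gave 0 counts in both groups and is not read. The quartile ranges of CD23 and CD24 in the 2 groups overlap, so single cells cannot be placed by them.

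**Figure D5:**
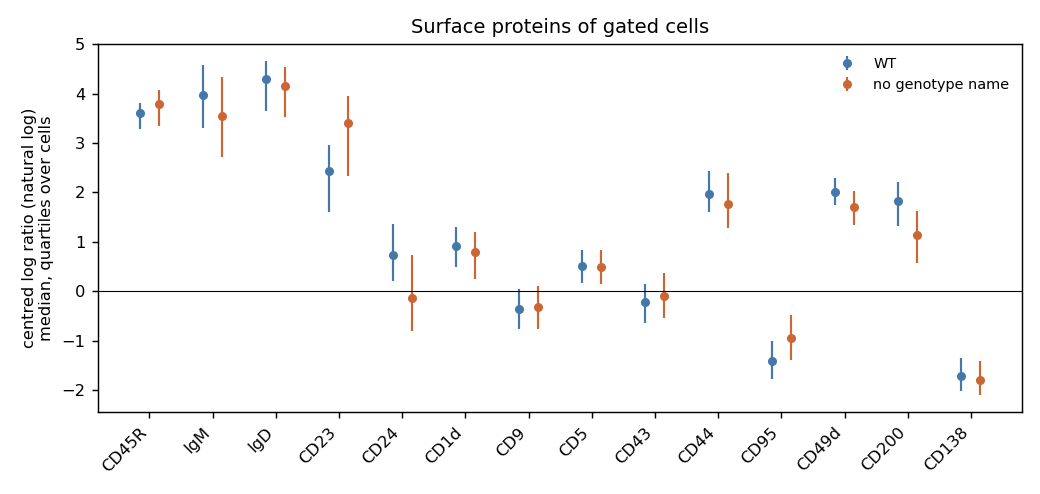
Centred log ratio of 14 surface proteins (y axis, natural log) on gated WT cells (blue) and unnamed cells (orange), as points at the median over cells with bars from the lower to the upper quartile. CD23 and CD95 lie higher and CD24, CD200 and IgM lower in unnamed cells.

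Transcripts of neutrophils and macrophages were also higher in the gated unnamed cells. All 6 measured genes of the neutrophil and basophil list (of 8) were past 2-fold higher, with a median log2 ratio of 2.40, and the list summed to 2465 and 530 CPM. S100a9 was at 1169 and 266 CPM and S100a8 at 721 and 173 CPM. Per cell the list ranged from 0 to 141773 CPM among unnamed and from 0 to 73823 CPM among WT cells. It was at 0 in 70.0% and 73.9% of cells. Of the monocyte and macrophage list 4 of 12 were measured and 3 past 2-fold higher (Lyz2, Csf1r and Cd14). The list summed to 277 and 63.6 CPM, and 3 of its genes were at 0 UMIs in each group.

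S100a8 and S100a9 together came from few cells, with 94.4% of the unnamed UMIs in 29 cells of at least 20 UMIs and 75.4% of the WT UMIs in 6 such cells. T cells showed them as well, at 1104 and 191 CPM. In the whole library 7.77% of unnamed and 3.39% of WT cells held at least 20 UMIs of S100a8 and S100a9. Their part in the ratios of other genes is given by the reduced set of cells below.

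Other lists differed less. The T cell list summed to 545 and 415 CPM with 1 of 10 genes past 2-fold higher, and the NK list to 927 and 581 CPM with 1 of 10. For the plasmacytoid list these values were 421 and 429 CPM with 0 of 8, and for the dendritic list 52.6 and 38.2 CPM with 1 of 5 measured. The erythroid list summed to 220 and 87.5 CPM, with 4 of 5 measured genes past 2-fold higher and 1 past 2-fold lower, and 3 cells held 97.8% of the Hbb-bs UMIs among unnamed cells. Of the endothelial and stellate list 1 of 8 genes, Pecam1, was measured, at -0.22. The hepatocyte and platelet lists had 0 measured genes, at 3.84 and 1.04 CPM and at 5.45 and 0.519 CPM.

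The 12 highest genes were taken from a ranking without receptor segments and without genes of which 3 cells of either group held at least 50% of the UMIs. They were Ifitm1, Ccl6, Fpr2, Gda, Hcar2, Retnlg, Clec4e, Cxcl2, 2900055J20Rik, Mmp9, Nlrp3 and Bc1, with log2 ratios from 3.53 to 2.26. Most of them are known from neutrophils and monocytes, such as Fpr2, a receptor for bacterial formyl peptides, and Clec4e, a receptor for mycobacterial glycolipid. Retnlg, a neutrophil product, had 1025 and 183 UMIs. In the reduced set of cells described further on, only Ifitm1 of these genes stayed past 2-fold higher, at 1.496 (0.1668 to 2.941). There Ccl6 was at 0.9676 (-0.3361 to 2.317) and 2900055J20Rik at 0.8552 (0.4093 to 1.304). Retnlg, by which cells were removed, was at -0.4582, Cxcl2 at -0.2522 and Bc1 at -0.04833. Fpr2, Gda, Hcar2, Clec4e, Mmp9 and Nlrp3 were too low to compare there. The limit on 3 cells left out 30 other genes past 2-fold higher, 12 of them, Iigp1 among these, because of the share in 3 WT cells alone.

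Ffar2, a receptor for short-chain fatty acids, was one of these 12 and is named here after its values were seen. It had 203 UMIs in unnamed and 13 UMIs in WT cells, a log2 ratio of 4.27 (3.46 to 5.20). In unnamed cells its UMIs were spread, with 9.36% in 3 cells and 11.9% of cells positive, against 0.539% of WT cells. After thinning it was found in 5.75% (4.43 to 7.31) and 0.0673% (0.0017 to 0.375) of B cells and in 0.145% and 0.6002% of T cells. In the reduced set described next it had 113 and 4 UMIs, a log2 ratio of 5.41 (4.01 to 7.31). Cxcr2 and Il1b, known from neutrophils and monocytes, were left out in the same way, at 2.72 and 2.58. Cxcr2 had 3 and 3 UMIs and Il1b 6 and 15 UMIs in the reduced set. The ratio of Ffar2 was thus as large there, and those of Cxcr2 and Il1b were not seen there. Il1b is in the neutrophil list by which cells were removed, so its value there is no separate result.

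The 12 lowest genes were Prkar2b, Slc15a2, Nid1, Zcwpw1, Adm, Lmo7, Diras2, Il6st, Hepacam2, Gpr137b, Gm19951 and Gch1, with log2 ratios from -2.27 to -1.23. Prkar2b, a regulatory subunit of protein kinase A, had 39 and 232 UMIs (log2 ratio -2.27, -2.80 to -1.78) and was found in 2.32% of unnamed and 6.73% of WT cells. Slc15a2, a transporter of small peptides, had 24 and 115 UMIs (log2 ratio -1.96). Nid1, a basement membrane protein, had 54 and 225 UMIs (log2 ratio -1.76). Each of the 12 was found in under 12% of WT cells, so each was seen in a minority of the WT B cells. Some of these ratios depend on few cells. In the reduced set described next, Diras2 was at -0.13 (-1.199 to 0.89) and Lmo7 at -0.57 (-1.49 to 0.29), and Zcwpw1 was at -0.19 among cells within the usual WT range of depth and mitochondrial share.

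The comparison was therefore repeated on cells that held under 2 UMIs of each of the T, NK, macrophage and neutrophil lists, under 10 Jchain UMIs and no doublet call. This set, chosen after the values above were seen, held 573 unnamed and 916 WT cells. In it 35 of 4928 genes (0.71%) were past 2-fold higher and 8 (0.162%) past 2-fold lower. These shares use the minimum for single genes, while list members were counted at the lower minimum for gene lists. No share at the lower minimum is given for this set, so its list counts have no matching background. The neutrophil list summed to 87.0 and 84.4 CPM, as the removal had used its genes.

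Taken as lists, the interferon-γ and class I genes were as high in these cells. The interferon-γ list had 17 genes measured, all above 0, with 9 past 2-fold higher and a median log2 ratio of 1.00. Of those past 2-fold in all gated cells, Gbp6 was at 0.88 (-0.087 to 1.86) and Tgtp2, with 14 and 3 UMIs, was too low to compare. All 17 class I genes stayed above 0, with 5 past 2-fold higher and a median of 0.74. Iigp1 had a log2 ratio of 4.16 (3.12 to 5.41, from 95 and 8 UMIs) and H2-Q7 one of 1.43 (1.29 to 1.57). Those differences were thus as large without the cells removed by these limits.

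Ranked by the same minimums, the highest genes in these cells included Serpina3f, Serpina3g, Il9r, Ighg1, Gbp5, H2-Q7, Nlrc5, AW112010, H2-Q6, AU020206 and Casp4. Serpina3g, an inhibitor of cysteine proteases, was at 489 and 85.3 CPM (log2 ratio 2.52, 2.28 to 2.77) and was found in 50.4% of unnamed and 12.1% of WT cells. Serpina3f, its neighbour, had 141 and 36 UMIs (log2 ratio 2.56, 2.02 to 3.13), and reads may be split between these related genes. Il9r, the IL-9 receptor, had 162 and 52 UMIs (log2 ratio 2.23, 1.77 to 2.71). Before any removal, and after thinning, Il9r was found in 8.99% of unnamed and 2.16% of WT B cells and in 0.485% and 0.433% of T cells. Before any removal, and without thinning, Serpina3g was found in 46.43% of unnamed and 15.29% of WT B cells. In T cells it was found in 48.88% of unnamed and 24.77% of WT cells. The share of cells with Serpina3g was thus higher among unnamed T cells as well.

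Ighg1 stayed higher in these cells, with 144 and 58 UMIs (log2 ratio 1.901, 1.452 to 2.367), in 6.81% and 5.24% of cells. Those shares were not above the 7.61% of unnamed and 6.30% of WT T cells that held an Ighg1 UMI without thinning. The lowest genes in the reduced set were Hepacam2, S100a6, Nfam1, Gm19951, Tyrobp, Rgs2, Nr4a1, Zfp703, 9430015G10Rik, Sik1, 2010309G21Rik and Inpp4b, with log2 ratios from -2.06 to -0.95. Of these, Tyrobp, an adaptor of myeloid and NK cells, was at 0.56 in all gated cells and at -1.39 here, and Nfam1 was at -0.13 and -1.57. S100a6, a calcium-binding protein, was at 89.9 and 273 CPM (log2 ratio -1.60, -1.89 to -1.32), and Rgs2, which dampens G protein signals, at 294 and 642 CPM (-1.13, -1.29 to -0.97). Nr4a1 had a log2 ratio of -1.02 (-1.20 to -0.85), Vpreb3 one of -0.75 and Cd24a one of -0.60. The CD23 and CD24 antibodies differed by 1.04 and -0.93 in these cells. The lower levels of Vpreb3 and Cd24a, the higher level of CD23 protein and the lower level of CD24 protein were thus present without the removed cells.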

How the data were processed

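The authors captured and counted both pools on the BD Rhapsody system and deposited UMI counts per cell for genes and 49 antibodies, made by the BD pipeline (version 1.9 in the file headers) from reads aligned with STAR to mm10 and corrected for sequencing errors. These deposited counts were used as given. From the metadata the genotype and cell type names were used, and the filtered expression tables were not, and the authors' filter on cells is not given in the sources used here.

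Counts of gated cells were summed per group and scaled to 1000000. A count of 0 stood at 3 counts for a ratio. Intervals at 95% were exact Poisson for CPM, exact conditional binomial for ratios, Clopper-Pearson for shares and Newcombe for differences of shares. They cover counting error only. With 1 library no test was made, and whether cells of several mice were pooled is unknown. No cell was filtered beyond the gate. Doublets were called with Scrublet in scanpy 1.11.5 (5.40% of the library; 57 unnamed and 35 WT gated cells) and kept in the main sums. Scaling by TMM used edgeR 4.0.16 and other steps Python 3.11.15. The ratio and its interval were tested on simulated counts.

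The genes named are list members with at least 20 UMIs over both groups, and the 12 highest and 12 lowest ratios of genes that reached 100 UMIs in total and 10 per group, with 1 direction under every scaling and under 50% of UMIs in 3 cells. The ranking holds no receptor segment and no sex gene. The ranking in the reduced set of cells, with the same minimums, was added after the values were seen. The members and the lists were chosen with earlier results of these data known. Antibody counts were taken as centred log ratios of count plus 1. Cells were thinned to 1000 UMIs for shares. Some members of the lists and some antibodies are not reported here by name, and list counts and medians include them.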

Additional observations from a re-analysis of the deposited data

How the results depend on the processing

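The lower share of B cells among unnamed cells (-14.0 points) lay between -13.4 and -14.3 points under the 4 other ways to set the gate (a higher Cd79a minimum, an added B cell gene, thinning, doublet removal). The 120 genes past 2-fold higher became 46 after thinning to 1000 UMIs, 57 within the WT range of depth and mitochondrial share, 38 without cells with other-lineage markers, 35 without those, Jchain and doublet cells, and 375 at 20 UMIs. The 28 lower became 2, 11, 14, 8 and 187. All other settings stayed within 1.5 times, at 89 to 150 and 19 to 36. Fewer UMIs or cells lower the number of genes tested in the first 4 settings (4107 to 6048 of 7079). The share of tested genes past 2-fold higher fell there too, from 1.7% to 1.12%, 0.942%, 0.763% and 0.71%. The share past 2-fold lower fell from 0.396% to 0.0487%, 0.182%, 0.281% and 0.162%. The medians of the interferon-γ and class I lists kept their direction throughout.

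Among named genes whose interval lies off 0, and list medians at least 0.1 from 0 over the members measured in all gated cells, direction turned as follows. Without cells with other-lineage markers it turned for Retnlg (-0.46), Cxcl2 (-0.25), Bc1 (-0.049), S100a8 (-0.052), Il1b (-0.73), Ighg2b (-0.70), Igha (-1.01), Jchain (-0.58), Igkc (-0.14), Tnfrsf17 (-0.49), Rsad2 (-0.73), Tyrobp (-1.41) and Ms4a1 (0.12), and for the medians of B identity (0.042), marginal zone (0.021), immunoglobulin (-0.21), T (-0.14), NK (-0.035) and neutrophil (-0.26) genes. With Jchain and doublet cells also left out these were -0.46, -0.25, -0.048, -0.051 and -0.67 for Retnlg, Cxcl2, Bc1, S100a8 and Ighg2b, -0.73 for Il1b, -0.996 for Rsad2, -1.395 for Tyrobp, 0.12 for Ms4a1, 0.12 for Ighg3, 0.041 for B identity, -0.13 for T, -0.035 for NK and -0.25 for neutrophil genes. Over members still at 20 UMIs there, the T median was -0.080 and the NK median 0.12, which did not turn. Without Jchain cells alone they were -0.24 for Ighg2b, -1.05 for Pclaf, -0.14 for the plasma and -0.13 for the immunoglobulin median, and the log2 ratio of Iglc1 was -0.014, the log2 ratio of Ms4a1 0.0014 and the log2 ratio of Prdm1 -0.019. Within the WT range they were -1.18 for Ighg2b, 1.56 for Ighg3, -0.31 for Pclaf, -0.054 for Iglc1, 0.21 for Ms4a1 and 0.019 for B identity. Equal weight per cell gave 0.40 for Ighg3, 0.0091 for Ms4a1 and 0.0385 for the marginal zone median, thinning gave 1.05 for Ighg3 and -0.078 for the germinal centre median, and at least 4 Cd79a UMIs gave -0.15 for Ifit1 and -0.36 for the plasmacytoid median. By share of antibody counts CD44 (0.30) and CD16/32 (0.13) turned, and among reported differences under 0.1 CD5 (0.21), CD279 (0.15) and CD11c (0.22) did too. Cells with other-lineage markers were removed by the T, NK, macrophage and neutrophil lists. That removal acted directly on the T, NK and neutrophil medians and on Retnlg, S100a8 and Il1b, so their turns are no separate result. For the other turns the cause was not tested.

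No paired analysis was possible because both groups come from 1 library and carry no replicate numbers. With 1 library, counting intervals leave out the spread between mice, and genes under 20 UMIs could not be compared.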
